A study of Homo sapiens with 6 samples.

Results

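The 10 genes described here encode 4 integrin alpha subunits (ITGA2, ITGA3, ITGA6 and ITGAV), 2 integrin beta subunits (ITGB1 and ITGB5) and 4 proteins of the focal adhesion core (TLN1, ILK, PXN and PTK2). They were taken by gene symbol from a table of 17297 genes, and all 10 were found. The rule takes them by symbol and uses no measured value, but the set was drawn up with earlier results of these data known. The RNA came from LNCaP, a prostate cancer line long established in culture, as a line carrying the empty pBabe vector (pBabe-vector, genotype WT) and a line overexpressing GNA13 from wild-type cDNA in a pBabe-puromycin vector (pBabe-GNA13), the gene of the G protein subunit Gα13. Each condition was a single stable line, grown in RPMI with serum and cultured for 48 h after plating, with 3 biological replicates. The comparison of the lines addressed which transcripts differ when Gα13 is overexpressed, and p-values measure the spread between cultures of these lines, not between independently made lines.

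Integrins are receptors made of an alpha and a beta chain that bind collagen, laminin, fibronectin or vitronectin outside the cell. Inside the cell, talin binds the beta chain tail and links it to actin, and paxillin, integrin-linked kinase and focal adhesion kinase gather at the same sites, the focal adhesions. Gα13 activates RhoA through guanine nucleotide exchange factors, and in platelets it binds the tail of an integrin beta chain. In prostate epithelium the ITGA6 product pairs with ITGB1 or ITGB4 and binds laminin.

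Library totals ranged from 33002160 to 40628970 reads. Values are given as CPM, the reads of a gene relative to the library total after TMM scaling, so 1 read equals 0.0238 to 0.0312 CPM and counting error is small for most of the 10 genes. Headings of the columns carry a number, and 1 library of each line also carries the tag std. The libraries tagged std have differing numbers and were paired by the tag, and the others were paired by number. In these 3 pairs the deviations from the group means moved together (r = 0.659 to 0.888 across genes). By its number the std library of pBabe-GNA13 would go with pBabe-vector library 2, where r was −0.0306. Each pair holds 1 library of each line, and results are given both from a model of the line alone and from a model that also holds the pair (the block). GNA13 was at 76.7, 69.4 and 65.4 CPM in the pBabe-vector libraries (std, 2 and 3) and at 820, 886 and 747 CPM in the pBabe-GNA13 libraries, in accord with the labels (log2 fold change 3.54, SE 0.12, adjusted p = 9.12e-05, edgeR quasi-likelihood test with Benjamini-Hochberg adjustment). All 9 luminal prostate markers on the list, KLK3 among them, were at a mean of at least 1 CPM, and with the block 4 of the 9 were called higher in pBabe-GNA13 and 0 lower (5 and 0 on centred chromosomes). The 4 basal epithelium markers summed to 2.40 to 2.48 CPM in pBabe-vector and 4.49 to 8.26 CPM in pBabe-GNA13, with TP63 and KRT15 at or near 0. The 7 fibroblast markers summed to 12.8 to 24.2 and 18.0 to 26.4 CPM in the same order. The endothelial list had 1 gene in the table, VWF at 15.4 and 23.6 CPM, and the leukocyte list had CD14, at no more than 0.206 CPM. With the block 2 of the 4 basal markers, 2 of the 7 fibroblast markers and VWF were called higher as well, and none of these was called lower. Of all genes, 9.32% were called higher and 10.4% lower with the block. On centred chromosomes 14.3% of all genes were called in either direction. The part of these transcripts in the results was not tested, and in RNA from whole cultures fewer cells of a kind cannot be told apart from less RNA per cell.

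With the block, 3 of the 10 genes passed an adjusted p of 0.05: ITGA2, which was lower in pBabe-GNA13, and PXN and ITGA6, which were higher. The 250 bases before the start of each are shown because these are the genes on which the results turn. They are from RefSeq (GRCh38.p14), read 5′ to 3′ on the strand of the gene, and capitals mark the GC box (GGGCGG on either strand, so also CCGCCC) and the TATA box (TATAAA on either strand, so also TTTATA).
ITGA2, chr5:52989102-52989351, plus strand: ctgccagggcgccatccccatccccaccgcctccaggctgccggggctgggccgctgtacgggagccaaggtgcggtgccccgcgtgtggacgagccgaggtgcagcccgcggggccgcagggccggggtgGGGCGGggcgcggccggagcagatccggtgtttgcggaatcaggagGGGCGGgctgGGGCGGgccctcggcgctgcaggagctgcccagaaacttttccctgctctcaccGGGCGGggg
PXN, chr12:120265731-120265980, minus strand: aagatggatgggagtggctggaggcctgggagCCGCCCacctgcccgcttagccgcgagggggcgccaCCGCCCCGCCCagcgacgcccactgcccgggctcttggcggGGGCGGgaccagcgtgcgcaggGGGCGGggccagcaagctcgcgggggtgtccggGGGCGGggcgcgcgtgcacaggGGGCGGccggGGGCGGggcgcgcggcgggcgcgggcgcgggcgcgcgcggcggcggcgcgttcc
ITGA6, chr2:172427086-172427335, plus strand: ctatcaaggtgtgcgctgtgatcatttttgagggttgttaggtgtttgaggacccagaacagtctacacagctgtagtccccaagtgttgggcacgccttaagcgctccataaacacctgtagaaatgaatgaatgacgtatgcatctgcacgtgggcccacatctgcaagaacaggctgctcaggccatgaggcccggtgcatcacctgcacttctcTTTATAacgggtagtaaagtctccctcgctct
The ITGA2 stretch held 4 GC boxes at 76.4% GC, and the PXN stretch held 8 at 83.6% GC, 2 of them overlapping by a base. The ITGA6 stretch held no GC box and 1 TATA box, at 50.8% GC. PXN and ITGA6 each had 2 RefSeq starts, and only 1 of each was examined. Of 35114 promoters of the same length, 42.6% held a GC box, 10.7% a TATA box and 1.16% a CArG box, the element bound by serum response factor, and the median GC content was 58.0%. No CArG box was in the 8 promoters examined, those of ITGA2, ITGA6, ITGAV, ITGB1, ITGB5, TLN1, PXN and ILK. ITGA3 had no entry among the promoters, and PTK2 was left out by choice. ITGB1 had 3 GC boxes, ITGB5 and ILK 2 each, TLN1 1 and ITGAV none. ITGAV and ITGB1 also had 2 RefSeq starts and ITGB5 had 3, and 1 of each was examined. These letter matches are descriptions and do not show that a factor binds.

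**Figure D1:**
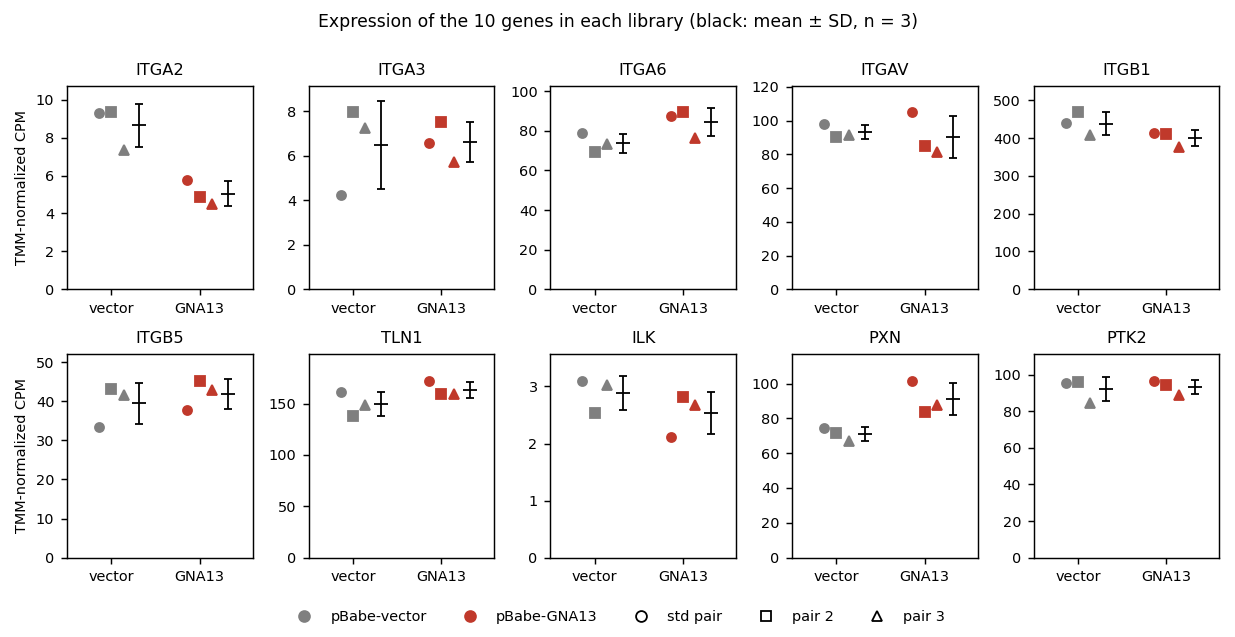
TMM-normalized CPM (linear axes from 0) of the 10 genes in each of the 6 libraries, pBabe-vector in grey and pBabe-GNA13 in red, with the marker shape giving the library pair and black bars the mean ± SD (n = 3). The groups do not overlap for ITGA2 (4.48 to 5.78 against 7.35 to 9.33 CPM) and PXN (83.8 to 101.6 against 67.0 to 74.6 CPM), and overlap for the other 8 genes.

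ITGA2 encodes the alpha chain that pairs with ITGB1 in a collagen receptor, and it showed the largest difference of the 10 genes. It was at 9.30, 9.33 and 7.35 CPM in the pBabe-vector libraries (std, 2 and 3) and at 5.78, 4.88 and 4.48 CPM in the pBabe-GNA13 libraries. Every pBabe-GNA13 library was below every pBabe-vector library, and raw counts were 154 to 216 against 236 to 390. The means were 8.66 ± 1.13 and 5.05 ± 0.669 CPM (SD, n = 3). Without the block the log2 fold change was −0.78 (SE 0.17, 95% interval −1.19 to −0.37, adjusted p = 0.248, edgeR), which did not pass. With the block ITGA2 fell by 0.78 on the log2 scale (95% interval −1.02 to −0.53, adjusted p = 1.92e-05, edgeR), that is 41.7% lower. Within the pairs the log2 differences were −0.68, −0.93 and −0.71, so the deficit was present in 3 of 3 pairs. The difference between lines took up 86.0% of the sum of squares of its log2 CPM and the pairs 12.2%.

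ITGA6 encodes a laminin-binding chain. Of the 4 alpha subunits it had the highest level per exon length, though not the highest mean CPM. It was at 78.7, 69.1 and 73.1 CPM in pBabe-vector and at 87.5, 89.3 and 76.4 CPM in pBabe-GNA13. The lowest pBabe-GNA13 library lay below the highest pBabe-vector library, so the groups overlapped. The log2 fold change was 0.20 (SE 0.10, 95% interval −0.04 to 0.43, adjusted p = 0.711, edgeR) without the block. With the block ITGA6 rose by 14.5% (log2 fold change 0.20, 95% interval 0.08 to 0.31, adjusted p = 0.0149, edgeR). The pairs gave 0.15, 0.37 and 0.06, and without pair 2 the blocked difference was 0.10 (adjusted p = 0.357, edgeR), so the call rested on that pair.

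ITGAV and ITGA3 did not pass either test. ITGAV encodes the vitronectin receptor chain that pairs with ITGB5 and with ITGB1. It was at 98.2, 90.0 and 91.5 CPM in pBabe-vector and 104.8, 84.9 and 81.7 CPM in pBabe-GNA13. Its blocked log2 fold change was −0.05 (95% interval −0.16 to 0.07, adjusted p = 0.615, edgeR), and the pairs went in both directions (0.09, −0.08 and −0.16). ITGA3 encodes a laminin-binding partner of ITGB1 and was scarce, at 4.22, 7.94 and 7.23 CPM in pBabe-vector and 6.59, 7.52 and 5.73 CPM in pBabe-GNA13. The std library of pBabe-vector was the lowest of the 6, and the std pair alone went up (0.63, against −0.08 and −0.33). The blocked log2 fold change of ITGA3 was 0.07 with a wide interval (−0.22 to 0.36, adjusted p = 0.803, edgeR), and without the std pair it was −0.20.

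ITGB1 encodes the beta chain shared by most of the receptors named so far and was the most abundant of the 10 genes. It was at 440.8, 467.6 and 407.0 CPM in pBabe-vector and 413.6, 410.2 and 375.2 CPM in pBabe-GNA13. It was lower in pBabe-GNA13 in each pair (−0.09, −0.19 and −0.12), but the ranges of the groups overlapped. Its blocked log2 fold change of −0.13 (95% interval −0.23 to −0.03) missed the threshold after adjustment over all genes (adjusted p = 0.0610, edgeR). ITGB5, which encodes a beta chain of vitronectin receptors, was at 33.5, 43.3 and 41.7 CPM in pBabe-vector and 37.8, 45.3 and 42.8 CPM in pBabe-GNA13. The std libraries were the lowest of both lines, and 85.9% of the sum of squares of log2 CPM of ITGB5 lay between pairs. Its blocked log2 fold change was 0.09 (95% interval −0.03 to 0.21, adjusted p = 0.307, edgeR).

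PXN encodes paxillin, the adaptor that recruits signalling proteins to focal adhesions. It was at 74.6, 71.5 and 67.0 CPM in pBabe-vector and at 101.6, 83.8 and 87.9 CPM in pBabe-GNA13. All pBabe-GNA13 libraries were above all pBabe-vector libraries, with means of 91.1 ± 9.33 and 71.1 ± 3.84 CPM (SD, n = 3). The log2 fold change was 0.36 (SE 0.11, 95% interval 0.11 to 0.60, adjusted p = 0.372, edgeR) without the block. With the block PXN rose by 28.0% (log2 fold change 0.36, 95% interval 0.24 to 0.47, adjusted p = 2.09e-05, edgeR), and the pairs gave 0.44, 0.23 and 0.39. PXN lies on chromosome 12, where the median log2 fold change of 586 genes with a mean of at least 1 CPM was 0.29. When each chromosome was centred on its own median, the blocked difference of PXN was 0.06 (95% interval −0.05 to 0.18, adjusted p = 0.506, edgeR) and the call was lost. An antisense RNA, PXN-AS1, covers 23.7% of the exonic bases of PXN, and whether reads were counted by strand is not given in the sources used here.

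TLN1 encodes talin, which couples the beta chain tail to actin. It was at 161.7, 138.2 and 148.4 CPM in pBabe-vector and 172.3, 159.0 and 158.9 CPM in pBabe-GNA13. It was higher in pBabe-GNA13 in each pair (0.09, 0.20 and 0.10), with overlapping ranges. Its blocked log2 fold change of 0.13 (95% interval 0.02 to 0.24, adjusted p = 0.0786, edgeR) did not pass, and on centred chromosomes it was 0.01 (chromosome 9 had a median of 0.12). PTK2, the gene of focal adhesion kinase, was at 95.8, 96.0 and 84.9 CPM in pBabe-vector and 96.8, 94.5 and 89.2 CPM in pBabe-GNA13. The libraries of pair 3 were the lowest of both lines. The blocked log2 fold change of PTK2 was 0.02 (95% interval −0.09 to 0.13, adjusted p = 0.846, edgeR), an interval that reaches no further than 5.77% lower or 9.26% higher.

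ILK encodes integrin-linked kinase, which with parvin and a LIM protein ties beta chains to actin. It was at only 3.10, 2.54 and 3.02 CPM in pBabe-vector and 2.11, 2.82 and 2.67 CPM in pBabe-GNA13, from 79 to 130 reads a library. The pairs disagreed in direction (−0.54, 0.15 and −0.17), and the blocked log2 fold change was −0.20 (95% interval −0.57 to 0.17, adjusted p = 0.515, edgeR). A reduction of up to 32.5% or a rise of up to 12.7% lies within that interval. Exons of genes on the opposite strand cover 78.5% of the exonic bases of ILK, and TAF10 alone, a subunit of the transcription factor TFIID, covers 68.1%. TAF10 had 930 to 1220 reads in the same libraries. Reads of ILK and TAF10 cannot be told apart where strand is not used, and the part of this overlap in the low level of ILK was not tested.

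**Figure D2:**
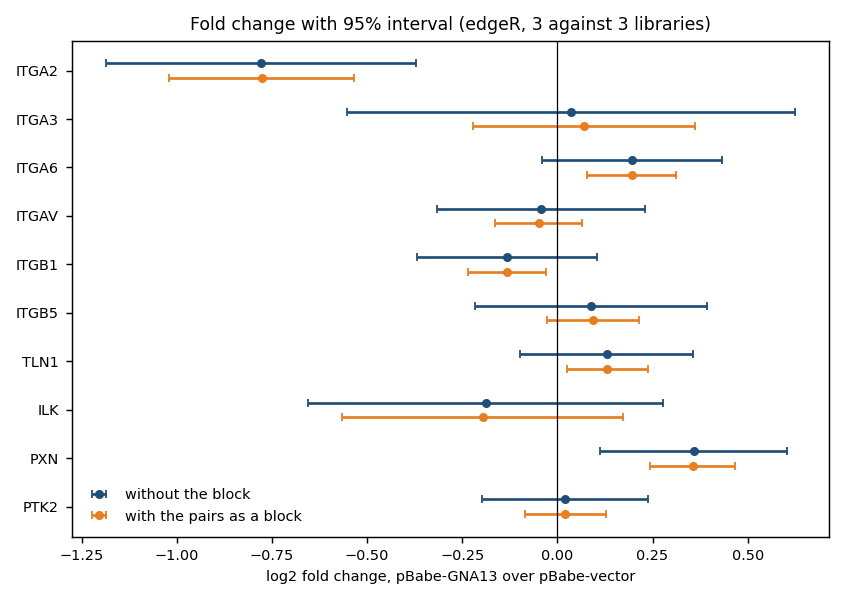
Log2 fold change of the 10 genes in pBabe-GNA13 over pBabe-vector with 95% intervals from edgeR, without the block (blue) and with the library pairs as a block (orange), 3 libraries against 3. The point estimates are close in both fits and the blocked intervals are narrower; adjusted p is under 0.05 with the block for ITGA2, ITGA6 and PXN, and for none without it.

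Read against all genes, 0 of the 10 passed without the block, where the share of all 17297 genes was 0.139% (24 genes). At an unadjusted p under 0.05, 2 of the 10 passed without the block (ITGA2 and PXN) against 8.46% of all genes. With it 5 of the 10 passed against 30.5% of all genes (5272 of 17297). Of the 14059 genes with a mean of at least 1 CPM alone, 1229 passed at this level without the block and 4959 with it. With the block, 3 of 10 passed against 19.7% of all genes and 23.3% of the 14059 genes with a mean of at least 1 CPM, to which all 10 belong. By direction, 2 of 10 were higher against 9.32% of all genes, and 1 of 10 was lower against 10.4%. On centred chromosomes with the block, 1 of 10 passed (ITGA2, log2 fold change −0.75, adjusted p = 4.41e-05, edgeR) against 14.3% of all genes. The groups did not overlap for 2 of 10, against 14.1% of all genes. With counts this small, none of these shares sets the 10 genes apart from the table as a whole. The exact two-sided permutation test over libraries gave 0.10 for ITGA2 and PXN, the smallest p that 3 against 3 allows, and 0.2 to 0.9 for the other 8 genes. The median absolute log2 fold change without the block was 0.13 over the 10 genes, 0.14 over all genes and 0.12 over the 14059 genes averaging 1 CPM or more.

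The order of levels was compared per kilobase of exon (Gencode 44, all exons of a gene merged). The order depends on these lengths, which were 6.68 kb for ITGA6 and 19.3 kb for ITGAV. In pBabe-vector it ran from ITGB1 at 30.1 ± 2.09 CPM per kb through TLN1 (15.1), ITGA6 (11.0), PXN (9.52), PTK2 (6.71), ITGB5 (6.06) and ITGAV (4.82) to ITGA2 (1.10), ILK (0.829) and ITGA3 (0.660). Ranges over the libraries overlapped between PTK2 and ITGB5 and between ILK and ITGA3, so those neighbours were not ordered beyond their spread. In pBabe-GNA13 the first 7 genes kept their order, with ITGA6 (12.6 CPM per kb) and PXN (12.2) now overlapping. The last 3 became ILK (0.728), ITGA3 (0.674) and ITGA2 (0.639), whose neighbouring ranges overlapped. By these full lengths ITGA2 thus went from a range above ILK and ITGA3 to one that could not be separated from ITGA3. For ILK, 78.5% of that length is shared with exons on the opposite strand, where its reads may not have been counted. The place of ILK beside ITGA2 and ITGA3 therefore depends on the length used.

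**Figure D3:**
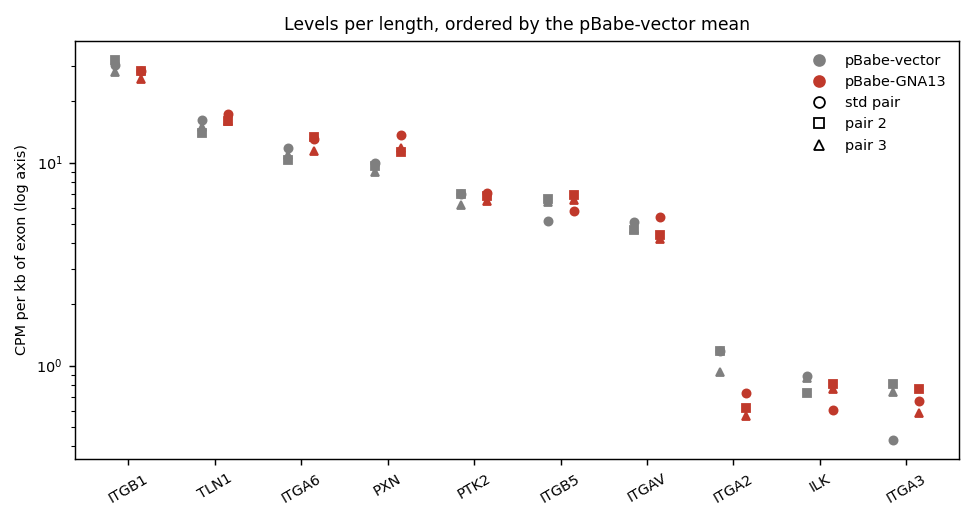
CPM per kb of exon (log axis) of the 10 genes in each library, ordered by the pBabe-vector mean, with colour giving the line and marker shape the library pair. ITGB1 is highest in both lines (30.1 and 27.4 CPM per kb on average) and ITGA2, ILK and ITGA3 form a group at no more than 1.18 CPM per kb, with ITGA2 lower in each pBabe-GNA13 library. The place of ILK depends on its full exon length, 78.5% of it shared with exons on the opposite strand.

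The makeup of the alpha chains shifted accordingly at the transcript level. ITGA6 made up 63.8%, 60.9% and 63.1% of the summed level per kb of the 4 alpha subunits in pBabe-vector (std, 2 and 3) and 65.7%, 69.8% and 68.0% in pBabe-GNA13. ITGA2 made up 6.38%, 6.95% and 5.37% in pBabe-vector and 3.68%, 3.23% and 3.37% in pBabe-GNA13. ITGAV made up 27.48%, 27.39% and 27.26% in pBabe-vector and 27.21%, 22.94% and 25.11% in pBabe-GNA13. The groups did not overlap in any of these shares, though only narrowly for ITGAV, and overlapped in the share of ITGA3. The ratio of ITGB1 to the summed alpha subunits was 1.64, 1.89 and 1.61 in pBabe-vector and 1.43, 1.47 and 1.53 in pBabe-GNA13, also without overlap. These shares are derived from the same values as the single genes and are no separate evidence. The 4 alpha subunits held 67.8% to 71.8% of the level per kb of all alpha subunits in the table. By mean CPM, not divided by length, ITGAV was above ITGA6. The values were 93.2 against 73.7 CPM in pBabe-vector and 90.5 against 84.4 CPM in pBabe-GNA13. The size of the ITGA6 share thus depends on the exon lengths used.

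Each gene was also set beside its neighbours, since whole chromosomes differed between the lines. Of 84 genes within 5 Mb of PXN, 80 had a positive log2 fold change, with a median of 0.30 against 0.36 for PXN itself. TLN1 likewise lay close to its surroundings, at 0.13 against a median of 0.11 over 64 neighbours. ITGA2 stood away from its own, at −0.78 against −0.12 over 18 neighbours, of which 13 were negative. Only genes with a mean of at least 1 CPM were taken as neighbours. ITGA1, also on chromosome 5 and lower in pBabe-GNA13 (log2 fold change −1.29), averaged 0.714 CPM and so could not be among them. ITGA6, at 0.20, had 35 neighbours with a median of 0.0039, but chromosome 2 as a whole had 0.07, and on centred chromosomes ITGA6 gave 0.12 with the block (adjusted p = 0.165, edgeR). For ITGA6 and PXN the call therefore depended on whether chromosomes were centred. Whether the copy number of these chromosomes differs between the lines was not tested.

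**Figure D4:**
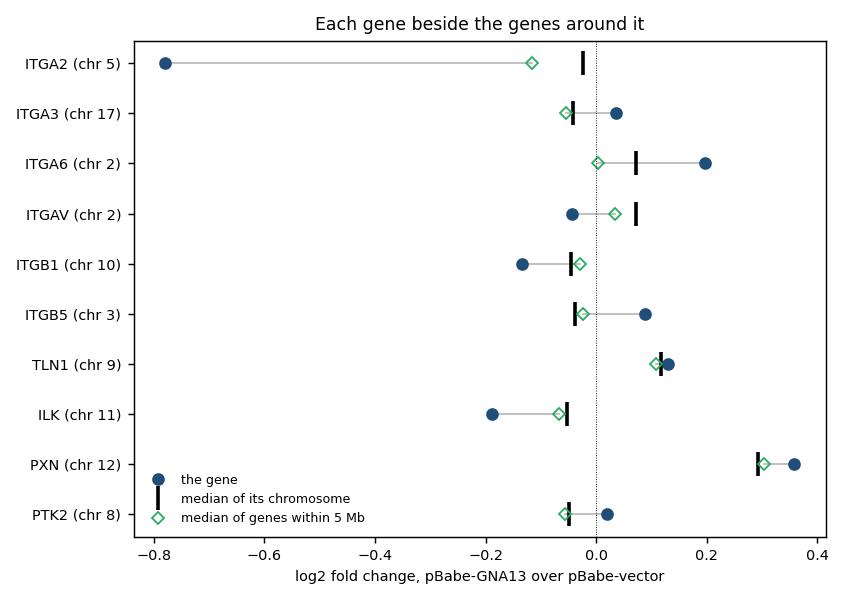
Log2 fold change without the block of each of the 10 genes (blue point), the median of the genes within 5 Mb (green diamond) and the median of its chromosome (black bar). Both medians are over genes with a mean of at least 1 CPM. PXN (0.36) and TLN1 (0.13) lie near the medians of their neighbours (0.30 and 0.11), and ITGA2 (−0.78) lies far from its own (−0.12).

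The ITGA2 gene spans chr5:52989340-53094779, ITGA3 chr17:50055968-50090481, ITGA6 chr2:172427354-172506459 and ITGAV chr2:186590010-186680901, all on the plus strand (GRCh38, Gencode 44). ITGB1 spans chr10:32887273-33005792, ITGB5 chr3:124761948-124901418, TLN1 chr9:35696948-35732195 and PXN chr12:120210439-120265771, all on the minus strand. ILK lies at chr11:6603708-6610874 on the plus strand, and PTK2 is on chromosome 8. Counts were per gene over its exons, so splice forms were not distinguished.

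Other genes of integrin adhesion were taken from lists that group them by role. Of 115 in the table, apart from GNA13 itself, 0 passed without the block by edgeR and 18 had an unadjusted p under 0.05, against 8.46% of all genes. With the block 22 were higher and 24 lower. That is 40.0% of the 115 against 19.7% of all genes, and 42.4% of the 92 with a mean of at least 1 CPM against 23.3% of all such genes. On centred chromosomes with the block, 13 were higher and 16 lower, where 14.3% of all genes were called in either direction. For the counts per list that follow, the shares of all genes with the block were 9.32% higher and 10.4% lower. The lists were assembled with results of these data known, and no test of the lists was made.

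Among 11 other alpha subunits, ITGA5, the fibronectin receptor chain, rose with the block (29.8 against 26.0 CPM, log2 fold change 0.21, adjusted p = 0.0345, edgeR), and on the centred chromosome 12 it was at −0.08 (adjusted p = 0.540, edgeR). ITGA1, a second collagen-binding partner of ITGB1, was lower with the block (0.411 against 1.02 CPM, log2 fold change −1.29, adjusted p = 0.00773, edgeR). It lies on chromosome 5, as does ITGA2. Only 10 to 21 and 29 to 43 reads stood behind it, and it was named after its value was seen. None of the 4 other beta subunits passed, ITGB4 among them (2.86 ± 0.347 against 2.18 ± 0.926 CPM).

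Of 28 activators, adaptors and actin linkers, 5 were higher and 9 lower with the block (4 and 5 on centred chromosomes). Among those that rose were TNS4, which encodes a tensin (5.28 against 2.58 CPM, log2 fold change 1.02), and FERMT1, which encodes kindlin-1, a co-activator of beta chains (25.7 against 19.2 CPM, 0.42). TNS2, also a tensin, rose as well (10.1 against 6.93 CPM, 0.55), but was no longer called on the centred chromosome 12. The remaining pair were SORBS3 and CAV1, the latter at under 1 CPM, both named after their values were seen. FERMT2, which encodes kindlin-2, fell (18.3 against 26.9 CPM, −0.55, adjusted p = 2.53e-06 with the block, edgeR). So did FLNA, the actin crosslinker filamin A (496 against 717 CPM, −0.54), and ZYX, the focal adhesion protein zyxin (54.5 against 73.1 CPM, −0.43). Also lower were RSU1 (−0.34), PARVB (−0.28), VCL (−0.17) and TNS3 (−0.59), named after their values were seen. PARVB and VCL were not called on centred chromosomes.

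Of 29 adhesion signalling genes, 5 were higher and 4 lower with the block. On centred chromosomes 3 were higher and 1 lower, where genes can also be newly called. PAK1, a kinase acting below Rac and Cdc42, rose most (7.09 against 4.03 CPM, log2 fold change 0.82, adjusted p = 2.47e-05, edgeR). The Src family kinase YES1 rose from 96.4 to 117 CPM (0.28). GIT2, a paxillin-binding protein of chromosome 12, rose from 14.3 to 17.9 CPM (0.33), and was at 0.04 on centred chromosomes. CDC42 and PTPN11, named after their values were seen, completed the 5. PTK2B, the close relative of PTK2, fell from 124 to 105 CPM (−0.25), BCAR1, the scaffold p130Cas, from 71.1 to 62.2 CPM (−0.19) and ELMO2 from 46.8 to 40.9 CPM (−0.19, but 0.02 on centred chromosomes). PAK4, the remaining one, was named after its value was seen. On centred chromosomes BCAR1 (adjusted p = 0.0694, edgeR with the block), PAK4, CDC42 and PTPN11 were not called.

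Ligands of the receptors moved in both directions. Of 27 matrix genes, 8 were higher and 6 lower with the block (6 and 5 on centred chromosomes). FN1, the gene of fibronectin, rose (418 against 321 CPM, log2 fold change 0.40, adjusted p = 4.36e-06, edgeR), as did HSPG2, the gene of perlecan (27.2 against 20.5 CPM, 0.41), and the laminin chain LAMA1 (4.63 against 3.14 CPM, 0.55). THBS1, the gene of thrombospondin-1, fell (70.3 ± 30.3 against 124 ± 63.4 CPM, −0.79, adjusted p = 3.95e-11, edgeR), with a spread between pairs larger than its difference between lines. The laminin chain LAMA3 fell as well (131 against 195 CPM, −0.57), as did the collagen gene COL5A1 (4.36 against 8.16 CPM, −0.85). All 6 of these stayed called on centred chromosomes.

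Tetraspanins, membrane proteins that associate with laminin-binding integrins, gave 2 higher and 3 lower of 6 with the block. CD9 rose from 298 to 377 CPM (log2 fold change 0.34) and CD63 from 123 to 149 CPM (0.26), and both are on chromosome 12 and were at 0.05 and −0.03 once it was centred. TSPAN4 fell from 28.9 to 20.6 CPM (−0.48), CD82 from 14.8 to 11.1 CPM (−0.42) and CD151 from 145 to 121 CPM (−0.25), and these 3 stayed called. In the route from Gα13 to RhoA, 10 genes besides GNA13 gave 1 higher, RHOB (127 against 112 CPM, 0.18, not called on centred chromosomes), and 1 lower, AKAP13, an exchange factor for RhoA (40.8 against 48.7 CPM, −0.26). RHOA itself was at 362 ± 25.03 and 361 ± 35.4 CPM (SD, n = 3).

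**Figure D5:**
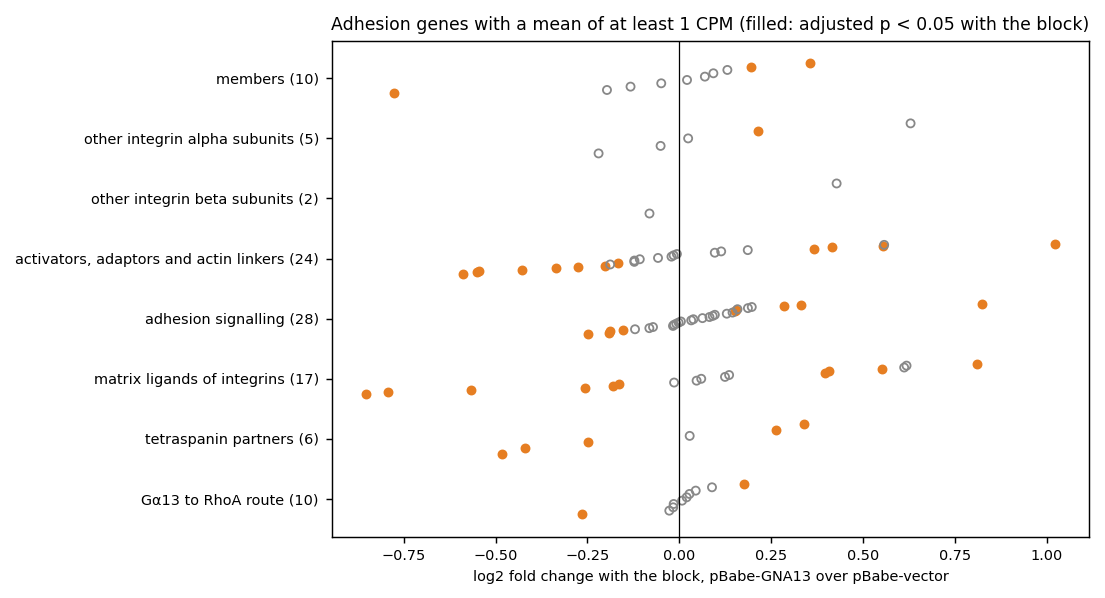
Log2 fold change with the block (pBabe-GNA13 over pBabe-vector) of the 10 genes and of 92 other adhesion genes with a mean of at least 1 CPM, by list (number of genes in brackets, GNA13 left out), filled where the adjusted p is under 0.05. Filled points lie on both sides of 0 in the lists of adaptors, signalling genes, matrix ligands and tetraspanins.

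By the whole pattern over the 6 libraries, 3 genes were closest to ITGA2 among 14058 others with a mean of at least 1 CPM. PLEKHG2 differed from it by a root mean square of 0.0712 in centred log2 CPM and was at 14.1 ± 2.42 against 22.4 ± 2.32 CPM. MEST (0.0886) and TCEAL3 (0.0912) followed. Their log2 fold changes without the block were −0.66, −0.68 and −0.71 in that order, close to the −0.78 of ITGA2, and being picked for likeness they are given without a test.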

How the data were processed

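RNA of 6 LNCaP cultures was read from both ends at a length of 150 nucleotides. Per the labels and the study's methods, the authors used FastQC 0.11.7, STAR with Gencode 38 and featureCounts. The deposited values are whole-number counts per gene symbol, not normalized, although the table is named as CPM. All 6 columns were used. The pBabe-GNA13 library tagged std carries a repeated number and is tied to its group, not to a numbered replicate. For the block it was paired by its tag.

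Counts were scaled by TMM and tested over all 17297 genes by the quasi-likelihood method of edgeR 4.0.16, run in R 4.3.3, with Benjamini-Hochberg adjustment at 0.05. A block for the library pairs was given beside it, because deviations from the group means correlated within all 3 pairs (0.659, 0.807 and 0.888) and at −0.736 to 0.125 between others, over 12778 genes. Log2 CPM used a prior count of 2. Intervals are 95%. Counts cover reads, not independent molecules. Permutation tests were exact and two-sided (SciPy 1.17.1). Chromosomes came from Gencode 44, to which 13709 symbols matched. Chromosome centring subtracted the median of genes with a mean of at least 1 CPM. Genes without a matched chromosome were not centred but stayed among the 17297 genes of the centred fits. The fits were tested on simulated data drawn without differences between pairs, so this test does not bear on the choice of the block.

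The members and lists were chosen with earlier results of these data known. All 10 members were named, and from each list the genes called without the block plus up to 3 per direction with the smallest blocked p and a mean of at least 1 CPM. Exceptions are stated. Alternatives were the block, filterByExpr, DESeq2 size factors, DESeq2 1.42.0, limma-trend (limma 3.58.1), chromosome centring and leaving out libraries. The newer edgeR method, and DESeq2, limma-trend and filterByExpr with the block, were added after seeing the data. A pseudocount alternative planned for values other than counts was not run.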

Additional observations from a re-analysis of the deposited data

How the results depend on the processing

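Without the block 24 genes, 0 of the 10 and 0 other adhesion genes were called. With the block these were 3407, 3 and 46, and with the block on centred chromosomes 2470, 1 and 29. DESeq2 called 271, 1 (ITGA2, adjusted p = 0.00715) and 2, and limma-trend called 5 genes. The block without the std pair, pair 2 or pair 3 called 3266, 2550 and 2250 genes, 3, 2 and 3 of the 10, and 39, 43 and 27 adhesion genes. Of the settings added after seeing the data, the newer edgeR method without the block called 23, 0 and 0. With the block the added settings gave 3129, 3 and 44 with the newer edgeR method, 2000, 2 and 31 with DESeq2, 3078, 3 and 41 with filterByExpr, and 433, 0 and 6 with limma-trend (ITGA2, adjusted p = 0.0525). Leaving out single libraries without the block gave 2 to 15 genes, none of the 10 and 0 to 1 adhesion genes. The cause of these differences was not tested, apart from the removal of the spread between pairs by the block and of chromosome medians by centring.

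ITGA2 lay between −0.88 and −0.69 in log2 fold change in 22 settings, called in 9, PXN between 0.06 and 0.42, called in 7, and ITGA6 between 0.10 and 0.27, called in 5. Direction turned for 4 genes that were never called. ITGA3 turned to −0.20 with the block without the std pair, and without single libraries it ran from −0.20 to 0.21. ITGAV turned to 0.016 with the block without pair 3, and ran from −0.15 to 0.032. ITGB5 ran from −0.018 to 0.17 and PTK2 from −0.037 to 0.059. ILK, ITGA3 and ITGA2 had the fewest reads of the 10 genes, at most 130, 269 and 390 a library.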
